A study of Homo sapiens with 9 samples.

Results

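The ZNF zinc finger genes of chromosome 19 were examined on expression arrays of RKO, a human colorectal cancer cell line. They were taken as all gene names made of ZNF and a number with at least 1 probe placed on chromosome 19 by the array annotation (hg19), which gave 245 of 36337 gene names. Each gene was represented by the brightest of its probes. There were 2 arrays each of siCONT cells, of siUHRF1 cells, and of both with TSA (siCONT + TSA, siUHRF1 + TSA). All these cells had 72 h of siRNA (a control siRNA or one against UHRF1), followed by 24 h of mock treatment or of trichostatin A (TSA), a histone deacetylase inhibitor, at 300 nM. The replicate number of a siUHRF1 array also names its siRNA, as replicates 1 and 2 had UHRF1 siRNAs of different sequence. A single array came from cells given 1 µM 5-aza-2'-deoxycytidine (5-aza-dC), an inhibitor of DNA methylation, for 72 h without siRNA. Its slide and scan were not those of the siRNA arrays, so in its comparisons the drug, the lack of transfection, the slide and the scan cannot be told apart.

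Most genes of this family encode C2H2 zinc finger proteins, many of them with a KRAB domain, which binds the corepressor TRIM28 (KAP1). TRIM28 brings the histone methyltransferase SETDB1 and heterochromatin proteins to the bound DNA, and many family members recognize transposable elements. The genes arose by repeated duplication and lie in long clusters on chromosome 19. UHRF1 brings the methyltransferase DNMT1 to newly replicated DNA, and several genes of the family are known to carry methylated promoters in tumours.

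All 245 genes matched a chromosome 19 gene of the RefSeq table (GRCh38.p14), 237 of them protein coding and 8 pseudogenes, and 208 had a promoter sequence of 300 bases there, most of it upstream of the start of transcription. Promoters are shown for 4 genes on which the results turn. ZNF793 and ZNF274 were above background on both siUHRF1 arrays and on no siCONT array. ZNF134 was above background only with 5-aza-dC, and ZNF426 was lower with TSA. The promoters are given 5′ to 3′ on the gene's strand, and capitals mark CG, the dinucleotide that carries DNA methylation.
ZNF793, chr19:37506689-37506988, + strand: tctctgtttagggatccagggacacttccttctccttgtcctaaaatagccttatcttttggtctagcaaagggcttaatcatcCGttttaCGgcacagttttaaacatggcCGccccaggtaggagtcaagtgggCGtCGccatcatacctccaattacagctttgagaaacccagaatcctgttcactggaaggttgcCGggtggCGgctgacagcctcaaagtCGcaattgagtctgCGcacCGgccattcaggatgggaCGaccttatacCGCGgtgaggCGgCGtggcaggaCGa
ZNF274, chr19:58182811-58183110, + strand: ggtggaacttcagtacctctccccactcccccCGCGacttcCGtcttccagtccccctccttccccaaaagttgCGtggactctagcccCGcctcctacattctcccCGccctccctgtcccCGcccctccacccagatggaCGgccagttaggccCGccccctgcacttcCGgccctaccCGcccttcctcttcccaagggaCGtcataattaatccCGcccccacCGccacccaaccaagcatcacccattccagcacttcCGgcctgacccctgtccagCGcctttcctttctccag
ZNF134, chr19:57613992-57614291, + strand: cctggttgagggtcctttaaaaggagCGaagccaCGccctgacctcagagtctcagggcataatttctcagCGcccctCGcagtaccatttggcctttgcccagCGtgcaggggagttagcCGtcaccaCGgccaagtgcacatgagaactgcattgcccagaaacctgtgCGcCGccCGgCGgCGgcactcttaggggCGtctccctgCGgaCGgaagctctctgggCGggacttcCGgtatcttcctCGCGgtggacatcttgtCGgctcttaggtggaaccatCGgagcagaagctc
ZNF426, chr19:9538596-9538895, - strand: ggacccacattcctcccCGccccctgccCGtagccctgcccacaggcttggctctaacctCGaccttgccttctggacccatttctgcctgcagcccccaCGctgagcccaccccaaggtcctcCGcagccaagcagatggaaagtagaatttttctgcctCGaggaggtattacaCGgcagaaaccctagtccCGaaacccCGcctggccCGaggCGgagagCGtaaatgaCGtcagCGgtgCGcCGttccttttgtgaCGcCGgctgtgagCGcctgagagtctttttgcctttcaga

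The ZNF793 and ZNF274 promoters held 16 CG each, the ZNF134 promoter 21 and the ZNF426 promoter 19. The median over the 208 promoters was 20 CG, and 75.5% held at least 15, compared with a median of 14 and a share of 48.8% over all 27305 promoters of the table. ZNF genes of other chromosomes held more, with a median of 23.5 CG and a share of 81.0%. Of the 208 promoters, 93 (44.7%) held CTTCCGG on either strand, compared with 2913 of all 27305 promoters. The motif is the core of the site of ETS factors. Among ZNF genes of other chromosomes the share was 33.8% of 216. ZNF274 held it at 2 places, ZNF134 at 1, and ZNF793 and ZNF426 at none. The motif was chosen after the sequences had been read, and a match is a description of the letters only.

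Signals are given as levels, log2 of the spot signal relative to the array's own 75th percentile, so a level of 0 equals that percentile. UHRF1, the siRNA target, had levels of 2.69 and 2.69 in siCONT and of 0.36 and 0.07 in siUHRF1. With TSA its levels were 2.87 and 2.86 with the control siRNA and -0.34 and -0.62 with the UHRF1 siRNAs. Its fall was past the threshold without and with TSA (limma adjusted p = 0.00238 and 0.000132). The 75th percentile of the raw signal lay between 245 and 338 on the siRNA arrays and was 822 on the 5-aza-dC array. Of the markers of the cell of origin, KRT8, KRT18 and CDX2 were above background on all 9 arrays, EPCAM on 2 and KRT19 on 3, while CDH1 and VIL1 were above background on none. Of the markers of other cell types, PECAM1 was above background on none, PTPRC on 6 and COL1A1 on 9 arrays. In the combination KRT18, KRT19 and COL1A1 were higher (log2 fold change 0.81, 3.97 and 1.67), and with 5-aza-dC KRT19 and EPCAM were higher (5.61 and 4.69). As KRT19 and EPCAM were below background on most arrays, their log2 fold changes rest on dim signals and are not measured folds. The part of these markers in the results was not tested. All samples are bulk RNA of a single cell line, in which a change in every cell and a change in some of the cells cannot be told apart.

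The family was broadly expressed. Between 199 and 206 of the 245 genes were well above background on each siRNA array, and 193 on all 9 arrays. The brightest were ZNF865, with a level of 8.90 and 8.96 in siCONT, ZNF799 with 7.08 and 7.20, and ZNF525 with 6.66 and 6.65. The median level was -0.84 and -0.86 on the siCONT arrays. On the 5-aza-dC array 229 of the 244 genes measured were above background. The spot of ZNF729 was marked as an outlier there and left out. Another 14 genes were above background on no array, among them ZNF135 and ZNF154, both reported to be methylated in tumours. For the tests, a gene needed all arrays of at least 1 group above background, which left 202 of the 245 for the siRNA comparisons. For 5-aza-dC, whose group is a single array, it left 229, of which 201 passed through a siRNA group and 28 through the 5-aza-dC array alone. Between the replicate arrays, the median absolute difference of these 202 genes was 0.071 in siCONT, 0.25 in siUHRF1, 0.089 in siCONT + TSA and 0.19 in siUHRF1 + TSA.

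With UHRF1 depletion alone 1 of 202 genes, ZNF793, was called higher and none lower at a limma adjusted p below 0.05. Of all 17743 gene names tested 0.643% were called, 0.614% higher and 0.0282% lower. At an unadjusted p below 0.05, 7 of the 202 genes (3.47%) passed, compared with 8.96% of all gene names. Their median log2 fold change was 0.00, as was that of all gene names. ZNF793, measured by a probe at chr19:38034128-38034187 (hg19, + strand), had levels of -6.46 and -5.95 in siCONT, both below background. In siUHRF1 its levels were -3.54 and -3.80, both above background. The siUHRF1 arrays lay above both control arrays, and the gene was at least 1.57-fold higher (log2 fold change of the fit 2.54, SE 0.22, limma adjusted p = 0.00897). For such limits the dim arrays were given the smallest signal that any probe well above background had on that array, unless the dim probe itself was brighter, and the group means were then compared. ZNF793 passed the filter through its siUHRF1 arrays alone, where it was high, and with no filter on dim probes the limma adjusted p was 0.0405. The call was lost without siUHRF1 replicate 1 (adjusted p = 0.0667 from limma), and with normexp background correction the log2 fold change was 0.40.

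ZNF274, a zinc finger protein that binds the 3′ ends of ZNF genes and recruits SETDB1, moved the same way. Its probe lies at chr19:58724097-58724156 (hg19, + strand). Its levels were -4.82 and -5.70 in siCONT, below background, and -3.80 and -3.78 in siUHRF1, above background. It was at least 1.45-fold higher but was not called (log2 fold change 1.47, limma adjusted p = 0.146). Of the 41 genes below background on both siCONT arrays, 2 were above it on both siUHRF1 arrays, ZNF274 and ZNF793. The like share of all 18712 gene names below background in siCONT was not taken, so these 2 are a description only.

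TSA alone lowered 11 of the 202 genes and raised none, compared with 10.8% of all gene names called, 6.97% higher and 3.85% lower. The median log2 fold change was -0.07, and 0.08 over all gene names. ZNF426 had levels of -3.22 and -3.11 in siCONT and of -4.49 and -4.59 in siCONT + TSA, where it was below background on both arrays. It was at least 2.06-fold lower (log2 fold change -1.37, SE 0.14, limma adjusted p = 0.00979). ZNF586 was barely above background in siCONT, with levels of -4.0 and -4.21, the second below background. It went to -5.00 and -5.40 with TSA, at least 1.07-fold lower (limma adjusted p = 0.0151). This limit rests on siCONT replicate 1, and without that array it was 0.996, which leaves no fold.

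ZNF83 and ZNF773 were above background on all arrays. ZNF83 had levels of -1.19 and -1.24 in siCONT and of -2.0 and -2.26 with TSA, a fall of the log2 signal with no overlap between the groups (log2 fold change -0.91, SE 0.12, limma adjusted p = 0.0134). ZNF773 had levels of -1.35 and -1.13 in siCONT and of -1.77 and -2.18 with TSA (log2 fold change -0.73, limma adjusted p = 0.0428), a call lost with a replicate block (0.0638) and with the mean of the gene's probes (0.059). ZNF331, an imprinted gene, went from 0.11 and 0.02 to -0.50 and -0.52 (log2 fold change -0.58, limma adjusted p = 0.02). The other genes called were ZNF473, ZNF383, ZNF581, ZNF177, ZNF780B and ZNF551, whose log2 fold changes lay between -0.73 and -0.49. The count fell to 0 without siCONT replicate 1, siCONT replicate 2 or siCONT + TSA replicate 2 and to 1 without siCONT + TSA replicate 1, and it was 20 and 21 without siUHRF1 replicate 1 and 2. With normexp background correction limma called 0, and the log2 fold changes of ZNF426 and ZNF586 turned to 0.26 and 0.43.

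The combination of UHRF1 depletion and TSA altered 37 of the 202 genes, 14 higher and 23 lower. Of all gene names, 24.2% were called, 16.1% higher and 8.07% lower. The family's median log2 fold change was -0.17, and 69 of the 202 genes were above 0, compared with a median of 0.07 over all gene names. ZNF genes of other chromosomes had a median of -0.05, with 24 higher and 18 lower of 234, and the other genes of chromosome 19 a median of 0.21, with 248 higher and 52 lower of 1001. Of the altered genes 37.8% were higher, but 20.8% after quantile normalization. After spike-in scaling (each array set by its spike-in control probes) the share was 7.69%, out of fewer genes called. That scaling moved the median of all gene names to -0.09 and of the family to -0.33.

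The largest rise was that of ZNF274. Its levels of -3.00 and -3.40 in siUHRF1 + TSA were above background, whereas all 4 arrays of siCONT and siCONT + TSA were below, the latter at -4.85 and -4.92. It was at least 2.17-fold higher than in siCONT (log2 fold change 2.06, SE 0.29, limma adjusted p = 0.00571). Among the siRNA groups ZNF274 passed the filter only through siUHRF1 and siUHRF1 + TSA, where it was high. With normexp background correction its log2 fold change was 0.50, and it was not called (limma adjusted p = 0.293). ZNF793 had levels of -4.80 and -5.25. It was called (log2 fold change 1.18, limma adjusted p = 0.0145), but all 4 arrays of this comparison were below background, where levels have no order, so no fold is given.

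Higher genes that were above background throughout changed less. ZNF101 had levels of 0.98 and 0.85 in siCONT and of 2.11 and 1.66 in the combination (log2 fold change 0.97, SE 0.18, limma adjusted p = 0.0136). ZNF296 rose from -1.23 and -1.37 to -0.36 and -0.52 (log2 fold change 0.86, limma adjusted p = 0.00819). ZNF575 rose from -3.14 and -3.15 to -1.76 and -2.55 (log2 fold change 0.99, limma adjusted p = 0.0429). In each of these genes both combination arrays were above both siCONT arrays. ZNF155 and ZNF446 had log2 fold changes of 0.61 and 0.60. The probes of ZNF302 disagreed: the brightest had a log2 fold change of 0.88 and was called, the other, also above background on all arrays, had -0.10, and their mean was not called (0.39).

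Of the genes that were lower, ZNF833P, a pseudogene, had levels of -2.20 and -2.14 in siCONT and of -3.43 and -2.95 in the combination (log2 fold change -1.02, SE 0.17, limma adjusted p = 0.00985). ZNF331 had levels of -0.78 and -0.69, below all arrays without TSA (log2 fold change -0.80, SE 0.09, limma adjusted p = 0.00339). ZNF426 had levels of -4.33 and -4.01, the second above background (log2 fold change -1.01, limma adjusted p = 0.00607). The groups did not overlap for any of these genes. ZNF419, ZNF773, ZNF546 and ZNF177 had log2 fold changes of -0.93, -0.88, -0.69 and -0.67 (a second probe of ZNF419 had -0.36 and was not called), and ZNF586, below background on both arrays, was at least 1.12-fold lower.

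Among these 16 genes, ZNF274 and ZNF331 were called with any single array left out. ZNF296, ZNF177 and ZNF426 lost the call without siCONT replicate 2 (limma adjusted p = 0.0676, 0.0755 and 0.0517), and ZNF101 and ZNF833P without either siCONT array. ZNF793 lost it without siCONT replicate 1 or siUHRF1 + TSA replicate 1. The other 8 genes lost it without siCONT replicate 1, without siCONT replicate 2 and without at least 1 further array. The count of genes called was 5 and 3 without siCONT replicate 1 and 2, 58 without either siUHRF1 array, 16 and 15 without siCONT + TSA replicate 1 and 2, and 17 and 21 without siUHRF1 + TSA replicate 1 and 2.

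**Figure D1:**
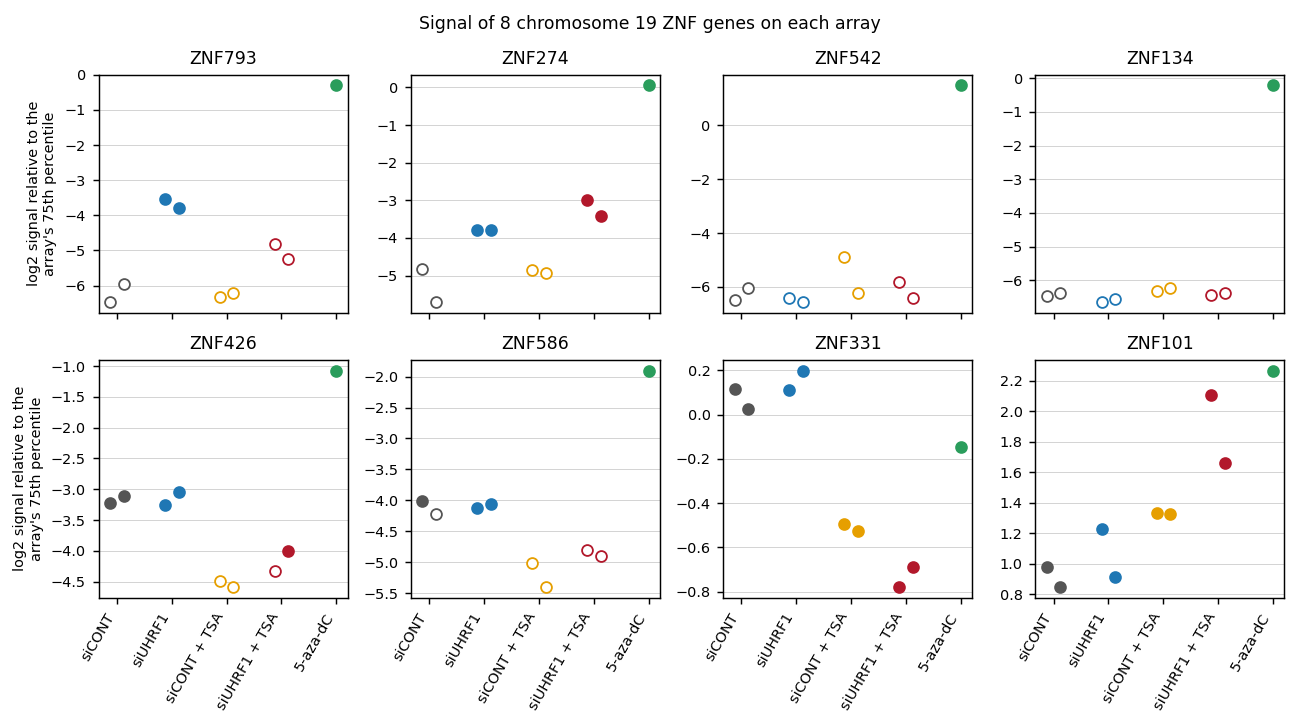
Level of 8 chromosome 19 ZNF genes on each of the 9 arrays, as log2 signal relative to the array's 75th percentile (y axis, with its own range in each panel), by group (x axis). Each circle is 1 array, filled where the probe was well above background and open where it was not. ZNF793 and ZNF274 were above background on both siUHRF1 arrays and on no siCONT array, and ZNF542 and ZNF134 on the 5-aza-dC array only.

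Under TSA, 2 of the 202 genes, ZNF274 and ZNF793, were called higher with UHRF1 depletion and none lower. Of all gene names 3.85% were called, 3.27% higher and 0.581% lower. At an unadjusted p below 0.05, 20 genes (9.90%) passed, compared with 17.9% of all gene names. ZNF274 was at least 2.01-fold higher than in siCONT + TSA (log2 fold change 1.68, SE 0.29, limma adjusted p = 0.0344). ZNF793 had a log2 fold change of 1.25 (limma adjusted p = 0.0403), but all 4 of these arrays were below background. Both genes passed the filter only through UHRF1-depleted groups, where they were high. With no filter on dim probes neither was called (limma adjusted p = 0.0935 and 0.106). With normexp background correction the log2 fold changes turned to -0.17 and -0.42. The call of either gene was lost without any 1 array of siUHRF1, siCONT + TSA or siUHRF1 + TSA.

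The effect of UHRF1 depletion under TSA was compared with that under mock treatment by limma's test of their difference. It called 0 of the 202 genes, compared with 0.389% of all gene names (0.361% higher and 0.0282% lower), and 4 of the 202 (1.98%) passed at an unadjusted p below 0.05, compared with 4.98% of all gene names. For ZNF793 the difference was -1.29 (SE 0.32, limma adjusted p = 0.438), and for ZNF274 it was 0.21 (SE 0.41, limma adjusted p = 1). With no filter on dim probes 1 gene, ZNF541, was called, and under the other alternatives run 0. Across the 202 genes, the effects of UHRF1 depletion without and with TSA, which share no array, had a Pearson r of 0.69 and a Spearman rho of 0.44, and over all 17743 gene names r was 0.68. Without ZNF274 and ZNF793 the values were 0.59 and 0.42. ZNF763, named after its values were seen, lay lowest under TSA, with log2 fold changes of -0.63 without and -1.73 with TSA, neither of them called. The effects of TSA in control and in UHRF1-depleted cells had a Pearson r of 0.79 and a Spearman rho of 0.84, and over all gene names r was 0.68. These values are across genes, which are not independent replicates, and the arrays share a slide, and those of UHRF1 depletion the same 2 siRNAs.

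**Figure D2:**
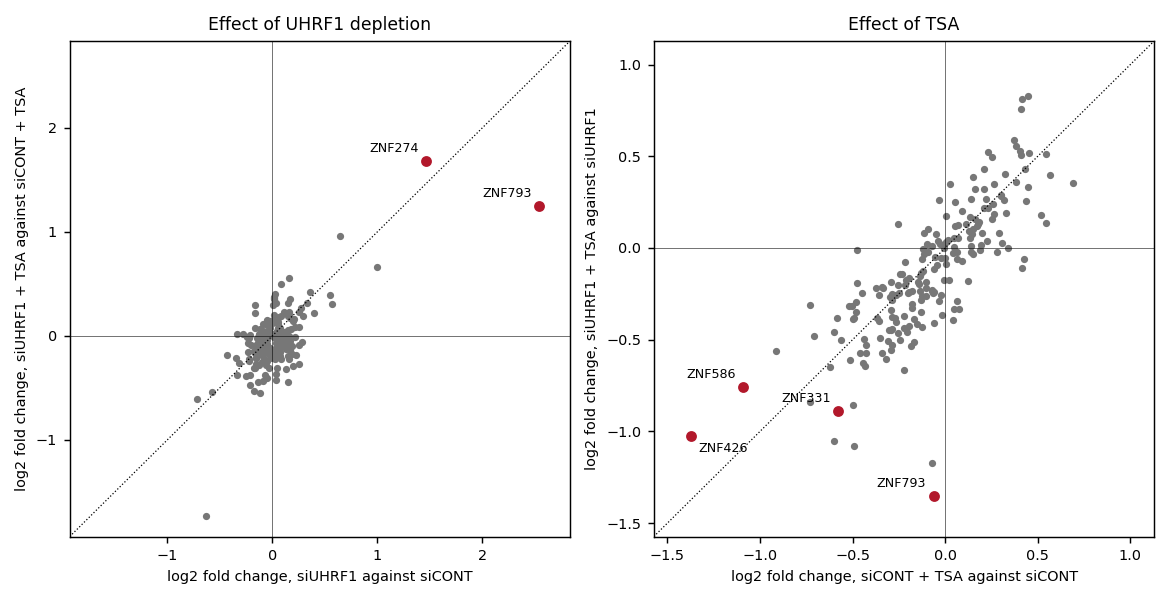
Effect of UHRF1 depletion (left panel) and of TSA (right panel) on the 202 genes tested, each as log2 fold change without the other treatment (x axis) and with it (y axis). Each point is 1 gene, the dotted line marks equal effects, and no array is shared between the axes of a panel. In the left panel ZNF793 and ZNF274 lie apart at the upper right, whereas in the right panel the points spread along the dotted line.

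On the 5-aza-dC array 78 of the 229 genes tested were higher than in siCONT and 29 lower, compared with 49.1% of 20286 gene names called, 25.2% higher and 23.9% lower. This single array was assumed by limma to vary like the other groups, so the calls carry no replicate check of their own. The 28 genes that passed the filter through this array alone were selected where they are high. Over all 2546 gene names that passed in that way the median log2 fold change was 2.17, and over the 28 it was 2.92. Among the 201 others 55 were higher (27.4%) and 29 lower (14.4%), with a median log2 fold change of 0.16. Over all 17740 gene names that passed through a siRNA group 19.7% were higher and 27.4% lower (median -0.09), and over 234 such ZNF genes of other chromosomes 42 were higher and 71 lower (median -0.26). When every array had to be above background, more of the 193 genes left were higher than lower. The shares of all gene names under that filter were not taken. The balance turned with spike-in scaling, which gave 18 higher and 170 lower of the 229, and the medians were -1.41 for the family and -1.64 for all gene names. The 18 higher genes were all among the 78. Of the 41 genes that no siCONT array detected, 26 (63.4%) were above background with 5-aza-dC, compared with 15.7% of all 18712 gene names below background there and 31.1% of 45 such ZNF genes of other chromosomes.

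ZNF542, which RefSeq lists as the pseudogene ZNF542P, was below background on all 8 siRNA arrays, with levels between -6.55 and -4.88. Its level with 5-aza-dC was 1.48, so it was at least 55.8-fold higher than in siCONT. ZNF134 lay between -6.64 and -6.22 on the siRNA arrays and at -0.21 with 5-aza-dC, at least 17.3-fold higher. ZNF256 lay between -6.35 and -5.14 and at -0.21, at least 17.2-fold higher. The 3 genes were thus below background in each siRNA group and above it on the 5-aza-dC array, through which alone they passed the filter. With no filter on dim probes they were called too (limma adjusted p = 0.000686, 1.44e-05 and 0.00125).

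The genes above background on both siUHRF1 arrays and on no siCONT array were also high here. ZNF274 had a level of 0.05, at least 20.7-fold higher than in siCONT (limma adjusted p = 0.000159). ZNF793 had a level of -0.30, at least 16.2-fold higher (limma adjusted p = 4.1e-05). The comparisons share the siCONT arrays. ZNF426, below background with TSA, had a log2 fold change of -1.37 with TSA and of 2.09 with 5-aza-dC, at a level of -1.07. For ZNF586, also below background with TSA, the values were -1.09 and 2.21, at a level of -1.90. The TSA values of both turned positive with normexp background correction. With spike-in scaling neither gene was called higher with 5-aza-dC.

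The largest falls of log2 signal were those of ZNF524, from 1.91 and 1.92 in siCONT to 0.25 (log2 fold change -1.67, SE 0.25, limma adjusted p = 0.00299), and of ZNF358, from -1.01 and -0.89 to -2.60 (log2 fold change -1.65, limma adjusted p = 0.00842). ZNF233 and ZNF181 had log2 fold changes of -1.29 each, and the call of ZNF181 was lost without any 1 array of siCONT, siCONT + TSA or siUHRF1 + TSA. All 4 genes were above background on every array. The 29 genes that were lower changed by -1.67 to -0.41.

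**Figure D3:**
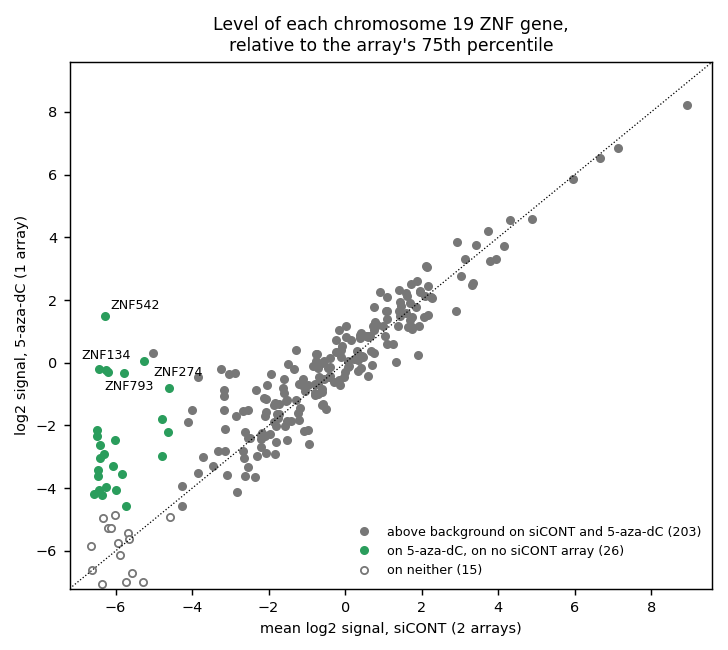
Level of each chromosome 19 ZNF gene on the 5-aza-dC array (y axis) against its mean level on the 2 siCONT arrays (x axis), both as log2 signal relative to the array's 75th percentile, for 244 genes. Grey points were above background on at least 1 siCONT array and on the 5-aza-dC array (203), green points on the latter and on no siCONT array (26), and open points on neither (15). The dotted line marks equal levels, and the green points all lie above it.

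Of 13 family members known to be methylated in tumours, 11 were tested against 5-aza-dC and 3 were higher, compared with 25.2% of all gene names. All 3 were among the 7 that passed the filter through the 5-aza-dC array alone, and none of the other 4 was called. Beside ZNF542 these were ZNF568, with levels of -4.63 and -4.62 in siCONT and -2.22 with 5-aza-dC, at least 4.30-fold higher, and ZNF671. ZNF671 was below background on siCONT replicate 1 at -6.49 and above it on siCONT replicate 2 at -3.56, so its siCONT arrays disagree, and its level with 5-aza-dC was 0.30. The 7 that passed through the 5-aza-dC array alone had a median log2 fold change of 2.29, compared with 2.17 over all gene names that did so. In the combination 4 of the 13 were tested, and ZNF177 and ZNF331 were lower, compared with 8.07% of all gene names. ZNF177 had levels of -0.80 and -0.62 in siCONT, -1.41 and -1.36 in the combination and -1.0 with 5-aza-dC, where it was not called.

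ZNF91, ZNF93, ZNF649 and ZNF765 are known to bind retrotransposons, ZNF91 the SVA elements and ZNF93 the L1 elements. None of the 3 tested in the siRNA comparisons was called there. With 5-aza-dC, 3 of the 4 were higher, compared with 25.2% of all gene names. ZNF93 rose from -1.95 and -2.12 in siCONT to -0.72 (log2 fold change 1.31, limma adjusted p = 0.00145). ZNF765 rose from 2.12 and 2.08 to 3.1 (log2 fold change 1.00, limma adjusted p = 0.0108), while its second probe had 0.34 and was not called. ZNF649, below background on all siRNA arrays, had a level of -2.45, at least 3.66-fold higher, and passed the filter through that array alone, while ZNF91 had a log2 fold change of -0.03. With spike-in scaling none of these 4 was called higher.

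The partners of the family in repression, 19 genes of the TRIM28 pathway, were all tested. UHRF1 depletion changed none at a limma adjusted p below 0.05. With TSA 1 of the 19 was higher and none lower, compared with 6.97% and 3.85% of all gene names. In the combination 1 was higher and 2 lower, compared with 16.1% and 8.07%. CBX3, a heterochromatin protein, was higher with TSA (log2 fold change 0.80, limma adjusted p = 0.021) and in the combination (0.81, limma adjusted p = 0.00973). In the combination MPHOSPH8, a subunit of the HUSH complex, and SUV39H1, a histone H3 lysine methyltransferase, were lower (log2 fold change -0.68 and -0.44, limma adjusted p = 0.00922 and 0.0495). TRIM28 itself had log2 fold changes of 0.09, 0.13 and 0.38 with UHRF1 depletion, TSA and the combination, none of them called. With 5-aza-dC 7 of the 19 were higher and 2 lower. All 19 passed the filter through a siRNA group, and of all gene names that did so 19.7% were higher and 27.4% lower.

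Along the chromosome the 245 genes fell into 9 clusters, set apart by gaps over 1 Mb, with 5 to 59 genes each, and 11 genes outside them. The largest share of higher genes with 5-aza-dC was in the fourth cluster, chr19:19790730-24309903 (hg19), from ZNF101 to ZNF254. There 18 of 30 genes tested were higher and none lower, with a median log2 fold change of 0.76, among them ZNF43, ZNF208 and ZNF682, which no siCONT array detected and which passed the filter through the 5-aza-dC array alone. Among its 27 other genes 15 were higher, with a median of 0.57, compared with 19.7% of all gene names that passed through a siRNA group. Over all 30 its median was 0.72 with quantile normalization and 0.65 with normexp background correction, but -0.94 with spike-in scaling, which gave 2 higher and 20 lower. That scaling also lowered the median of all gene names, to below that of the cluster. In the combination the same cluster had 1 gene higher and none lower of 28, compared with 16.1% and 8.07% of all gene names. Its brightest members, ZNF254 and ZNF714, were called in no comparison.

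In the eighth cluster, chr19:52092551-54083467 (hg19), from ZNF175 to ZNF331, 16 of 39 genes were higher and 3 lower with 5-aza-dC (median 0.53), or 9 higher and 3 lower without the 8 that passed through that array alone, and 1 higher and 5 lower of 31 in the combination (median -0.22). The ninth, chr19:55995696-58992591 (hg19), from ZNF628 to ZNF446, held ZNF542, ZNF134, ZNF256, ZNF671 and ZNF274. There 18 of 54 genes were higher and 10 lower with 5-aza-dC, or 11 higher and 10 lower without the 9 that passed through that array alone, and 5 higher and 5 lower of 45 in the combination. The seventh runs along chr19:44040017-45575588 (hg19), from ZNF575 to ZNF296. There 3 of 21 genes were higher and 4 lower with 5-aza-dC (median -0.24), and 4 were higher and none lower in the combination. All 21 passed the filter through a siRNA group. Of all gene names that did so, 19.7% were higher and 27.4% lower with 5-aza-dC. In the combination 16.1% of all gene names were higher and 8.07% lower. With spike-in scaling the median of the eighth cluster with 5-aza-dC was -1.16, and that of all gene names was lower still. The clusters were described with no test.

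**Figure D4:**
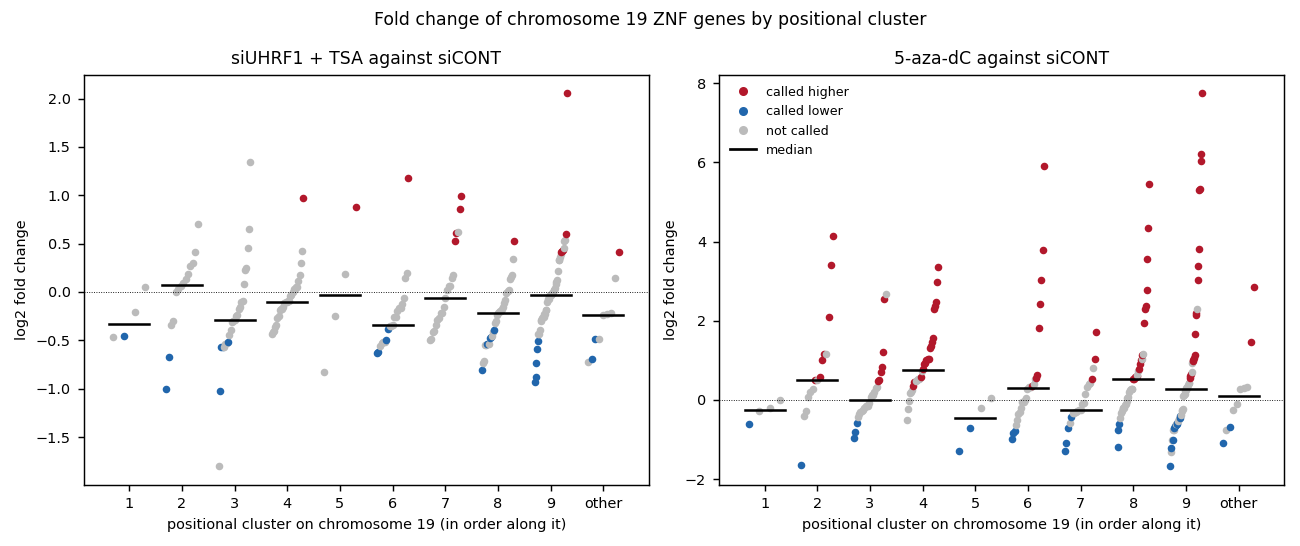
Log2 fold change of the genes tested (y axis), by positional cluster in order along chromosome 19 (x axis), for siUHRF1 + TSA against siCONT (left panel, 202 genes) and 5-aza-dC against siCONT (right panel, 229 genes). Each point is 1 gene, coloured by its call, and bars mark the median of each cluster. Within a cluster the points are ordered by value. Spike-in scaling, not drawn here, lowered the 5-aza-dC median of all gene names. In the right panel the fourth cluster has 18 genes called higher and none lower, a balance that turned to 2 higher and 20 lower with spike-in scaling.

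The promoters of the genes called higher with 5-aza-dC held a median of 18.5 CG (62 promoters) and those called lower 24 (27 promoters), the former including genes that passed the filter through the 5-aza-dC array alone. For the combination the medians were 25 for the genes called higher (13 promoters) and 22 for those called lower (21 promoters). CTTCCGG was present in 34 of the 62 promoters (54.8%) and in 11 of the 27 (40.7%). The ranges overlapped, from 8 to 49 and from 8 to 40 CG with 5-aza-dC.

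Where a called gene had other probes that passed the filter, they mostly moved the same way. Of 46 such probes with 5-aza-dC, 37 had the sign of the gene's brightest probe and 22 were called. Of 18 probes in the combination, 14 had the same sign and 5 were called. ZNF274 and ZNF793 had 1 probe each, so no second probe bears on them. The genes are close paralogs, and hybridization of a probe with transcripts of another member was not tested.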

How the data were processed

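Total RNA of RKO cells was hybridized in 1 colour to 9 arrays (Agilent SurePrint G3 Human GE v2). The authors deposited Feature Extraction 10.7.3.1 output per the file headers (10.7 per the labels), and its processed signal is a linear intensity after background subtraction and detrending, with no normalization between arrays. In the value table these signals are given again, rounded. The number of arrays limits the precision, and nothing says that replicates are separate cultures, so p-values measure the spread between these arrays.

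Log2 intensity was shifted by each array's 75th percentile. Outlier spots were left out and the spots of a probe averaged. limma 3.58.1 in R 4.3.3 (lmFit, eBayes) was fitted to 23730 probes of the 8 siRNA arrays, or to 27173 probes of all 9 arrays for 5-aza-dC, that were well above background on every array of at least 1 group. A call needed a Benjamini-Hochberg adjusted p below 0.05 over all probes. The procedure was tested on simulated data.

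The genes and lists were chosen with earlier results of these data known. Genes named are those called that rose or fell most (8 each way in the combination and 4 each way elsewhere) without overlap between groups, the members of the short lists, the 2 brightest of a cluster, and others named as examples after their values were seen. Promoters were taken from RefSeq (GRCh38.p14).

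Alternatives were normexp background correction (offset 50), quantile normalization, scaling on the median of detected probes or on spike-in probes, the value table, keeping outlier spots, filtering dim probes more strictly or not at all, a replicate block, the arrays of the compared groups only, each array left out, a trended and robust prior, the mean of a gene's probes, and the methods' t-test. Slide and scan could not enter the siRNA fit, since its 8 arrays have both in common.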

Additional observations from a re-analysis of the deposited data

How the results depend on the processing

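UHRF1 was lower in all alternatives, between -2.61 and -2.33 on the log2 scale without TSA and between -3.49 and -3.21 with TSA when 1 array was left out. By the methods' t-test with adjustment (-2.47 and -3.35) neither value was past the threshold. With 1 array left out, the count of genes called ranged from 0 to 2 for siUHRF1, 0 to 21 for TSA, 3 to 58 for the combination, 0 to 2 for UHRF1 depletion under TSA and 67 to 126 for 5-aza-dC (67 without siCONT replicate 2), and stayed at 0 for the difference of effects. The spread of a group left with 1 array was taken from the other groups. The counts, in the order siUHRF1, TSA, combination and UHRF1 depletion under TSA, were 0, 0, 3 and 0 with normexp background correction, 11, 73, 56 and 19 by the methods' t-test without adjustment, and 0, 20, 1 and 0 with it. Spike-in scaling gave 2, 13 and 1 for the last 3, and no filter on dim probes 2, 14 and 1, and 1 for the difference of effects. The gene called with no filter for UHRF1 depletion under TSA was neither ZNF274 nor ZNF793. The stricter filter gave 0 for siUHRF1 and 0 for UHRF1 depletion under TSA. The arrays of the compared groups alone gave 0 for siUHRF1, 76 for TSA and 1 for UHRF1 depletion under TSA. For 5-aza-dC normexp gave 68 and spike-in scaling 188. The cause of these shifts was not tested. Under normexp 4 values changed sign, namely ZNF426 (0.26) and ZNF586 (0.43) with TSA, and ZNF274 (-0.17) and ZNF793 (-0.42) for UHRF1 depletion under TSA. Over the 31 named results, 452 of 618 alternative values kept direction and call, 162 kept the direction only and 4 turned. ZNF542, ZNF134, ZNF256 and ZNF793 were called higher with 5-aza-dC in all 18 alternatives run for each.

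The replicate numbers did not pair the arrays across all 4 groups, although they name the siRNA of the siUHRF1 arrays. Replicate differences correlated between siUHRF1 and siUHRF1 + TSA (r = 0.47 over 23730 probes), which share the siRNA of each number, and between -0.05 and 0.08 for the other pairs of groups. With a replicate block the count was 6 for TSA, 38 for the combination and 1, 2 and 0 for siUHRF1, UHRF1 depletion under TSA and the difference. With the block ZNF793 was not called for UHRF1 depletion under TSA (limma adjusted p = 0.0693), nor ZNF773 for TSA alone (0.0638).

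Levels below background have no order, and many genes of the family lie near it. The spread between the siUHRF1 arrays, which had different siRNAs, was more than that between the siCONT arrays. The main fit pooled the spread over the groups, so this limits what every comparison can detect.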
